A study of Drosophila melanogaster with 24 samples.

Results

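The testis transcription programme of Drosophila melanogaster is run by a set of germline proteins that switch on the genes of meiosis and sperm formation in spermatocytes. The testis TAFs are spermatocyte versions of subunits of TFIID, the factor that recruits RNA polymerase to promoters. The testis meiotic arrest complex is a spermatocyte relative of the dREAM/MuvB complex. Loss of either stops male germ cells before the meiotic divisions, which gave the "meiotic arrest" genes their name.

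The 10 genes described here were chosen by name, as regulators of the male germline: the testis TAF genes can, sa, mia and nht, and the testis meiotic arrest complex genes aly, comr, topi, tomb, vis and achi. They are 10 of 13922 protein-coding genes on the chromosome arms 2L, 2R, 3L, 3R, 4 and X. Their values are the CUT&RUN intervals that lie inside each gene or within 500 bp of either of its annotated ends. CUT&RUN uses an antibody to bring a nuclease to a chromatin protein, so that the DNA around the protein is released and sequenced. The lists come from dissected ovaries. Stwl (Stonewall), a chromatin protein that female germline stem cells need, was mapped in the genotype WT, whose ovaries are labelled as differentiated, and in bam GKD, labelled as undifferentiated. Bam (bag of marbles) is the factor that starts germline differentiation. The chromatin boundary protein BEAF was mapped in WT. The labels do not spell out GKD, though histone samples of the series carry the name BamRNAi, and neither a driver, nor the flies' age, nor the number of ovaries was given in the sources used here. Each group had 1 list and no replicate, so no value below has a replicate error and no test was made. The other 21 of the 24 samples were not analysed here.

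The arms carried 8576 Stwl intervals in WT, 12857 in bam GKD and 5083 BEAF intervals, with median widths of 721.5 bp, 807 bp and 236 bp. Read depth is unknown. An ovary holds germline and follicle cells, and a list cannot tell which of them carried an interval. Both Stwl lists had an interval within 500 bp of an end at all 7 ovary marker genes examined, as at 49.6% of all protein-coding genes. They were vas, nanos, osk and Sxl of the female germline, and Cp36, Vm26Aa and Yp1 of the follicle cells. BEAF had one at nanos, osk, Sxl and Cp36 and none at vas, Vm26Aa and Yp1, against a share of 28.1% of all protein-coding genes. Positions are on dm6, counted from 1, with low and high end meaning the ends of lower and higher coordinate, since the annotation held gives no strand.

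A gene counts as called in a list if 1 of its intervals comes within 500 bp of the low or the high end, outside or inside the gene. Stwl called 4 of the 10 genes in WT (mia, topi, vis and achi), against 55.7% of all protein-coding genes. In bam GKD it also called 4 (mia, tomb, vis and achi), against 61.4%. BEAF called 3 (mia, vis and achi), against 28.1%. The remaining 5 genes, can, sa, nht, aly and comr, were called in none of the lists, as were 31.3% of all protein-coding genes. With 10 genes, a count of 5 does not set them apart from that share. Allowing intervals anywhere inside the gene added no call, so the 10 genes had 4, 4 and 3 calls on that rule too, against 58.0%, 64.0% and 31.3% of all genes, and the same 5 had none, against 28.8%. The members are 898 bp to 3529 bp long, and among the 7064 protein-coding genes of that length range the shares were 54.6%, 57.9% and 28.1%, with 33.3% in none of the lists. The median distance from the 10 genes to the nearest interval was 3308.5 bp for Stwl in WT, 1222.5 bp for Stwl in bam GKD and 18944 bp for BEAF. For all protein-coding genes it was 60.5 bp, 30 bp and 5923 bp. For Stwl these distances are not separate from the calls. With 4 of 10 genes called in each Stwl list, the median of the 10 falls among uncalled genes. With 55.7% and 61.4% called, the median of all genes falls among called ones.

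**Figure D1:**
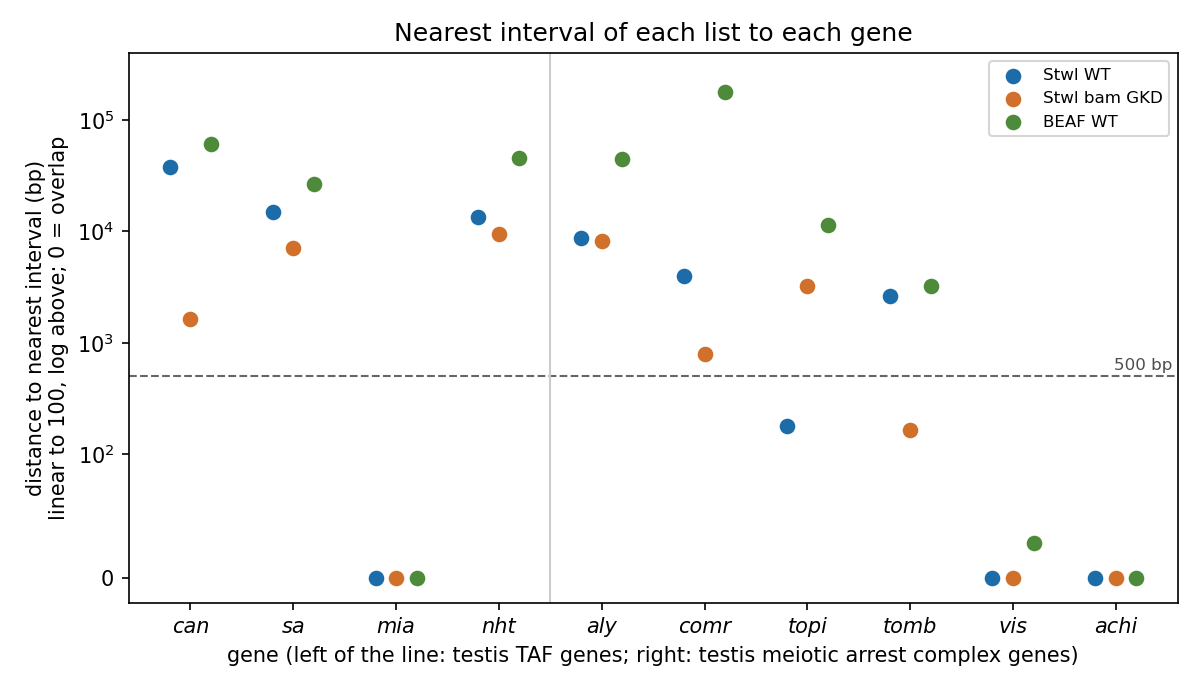
Distance in bp from each of the 10 genes to the nearest interval of each list (axis linear to 100 bp and logarithmic above; 0 is an overlap with the gene; the dashed line is the 500 bp limit). mia, vis and achi lie at 0 bp to 28 bp in all 3 lists, topi and tomb lie under the line in 1 Stwl list each, and can, sa, nht, aly and comr lie above it in every list.

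By role, the testis TAF genes had 1 of 4 genes called in each of the 3 lists, mia every time. The testis meiotic arrest complex genes had 3 of 6 called in each Stwl list and 2 of 6 by BEAF. Stwl was at an end of 3 members in both genotypes (49.6% of all protein-coding genes), of topi in WT alone (6.18%), of tomb in bam GKD alone (11.8%) and of 5 in neither (32.4%). In WT, mia, vis and achi had Stwl and BEAF together (26.4% of all genes) and topi had Stwl without BEAF (29.3%). All 3 lists met at mia, vis and achi, as at 24.3% of all genes. The calls of topi were shared by 567 genes (4.07%) and those of tomb by 1568 genes (11.3%). Stwl in both genotypes without BEAF, the pattern of 25.2% of all genes, was seen at 0 of the 10.

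Among the testis TAF genes, mia encodes the relative of Taf6, a histone-fold subunit of TFIID. It lies on 3R from 5548115 to 5551168 and carried intervals at both ends in both genotypes. The low end held a WT Stwl interval of 2279 bp, 5547233 to 5549511, and a bam GKD one of 2568 bp, 5546899 to 5549466, with 2234 bp in common. The high end held a WT interval of 4516 bp, 5550719 to 5555234, and a bam GKD one of 2354 bp, 5550720 to 5553073.

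The 2 lists thus began within 1 bp of each other at the high end of mia, and the WT interval went on across Pcmt, a protein repair methyltransferase gene, to Snm1, a gene for a DNA crosslink repair nuclease. Together the intervals covered 60.5% of mia in WT and 59.0% in bam GKD. The 4516 bp interval was wider than 94.9% of the Stwl WT list. BEAF sat at the low end only, in 3 short intervals of 211 bp, 178 bp and 315 bp, all of them inside the Stwl intervals of both genotypes. The low end of mia is 340 bp from CG2519, and each low-end interval of the 3 lists also lay within 500 bp of that gene.

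The other testis TAF genes had no interval inside them or within 500 bp of them. The gene can (3L, 10263909 to 10267111), a relative of Taf5, lay 37833 bp from the nearest Stwl interval of WT, 1647 bp from that of bam GKD and 60973 bp from BEAF. The gene sa (3L, 21405425 to 21406738), a relative of Taf8, lay at 14965 bp, 7157 bp and 26458 bp. The gene nht (2L, 15317954 to 15318901), a relative of Taf4, lay at 13468 bp, 9415 bp and 45473 bp.

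In each of these 3 genes bam GKD held the nearest interval and BEAF the farthest. The median distances of all protein-coding genes had the same order: 30 bp in bam GKD, 60.5 bp in WT and 5923 bp for BEAF. The sa gene lies wholly inside rgn, a gene of 41916 bp, and its nearest Stwl intervals of both genotypes lie within rgn.

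Of the testis meiotic arrest complex genes, vis and achi are neighbouring near-duplicates that encode homeodomain proteins of the TGIF family. They lie on 2R from 12507896 to 12510615 and from 12511534 to 12515062, 919 bp apart. Near-identical copies can share reads. The treatment of reads with several matches was not stated, so calls inside these genes are uncertain. The outer end of each gene carried Stwl in both genotypes. At the low end of vis the WT interval of 2419 bp, 12505707 to 12508125, lay wholly inside the bam GKD interval of 2969 bp, 12505473 to 12508441. Most of both lay over the neighbour fdl, a hexosaminidase gene: 230 bp of the WT interval and 546 bp of the bam GKD interval were inside vis.

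At the high end of achi a WT interval of 1082 bp, 12514465 to 12515546, and a bam GKD interval of 902 bp, 12514445 to 12515346, had 882 bp in common. The WT one also reached the next gene, CG13151. BEAF lay across the same place in an interval of 1255 bp, wider than 95.3% of its list. Between the 2 genes the lists differed. There Stwl had an interval of 1250 bp in bam GKD (12510911 to 12512160), which called the facing ends of vis and achi together, and none in WT.

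BEAF in WT had intervals of 596 bp and 224 bp in that same stretch. They overlapped the bam GKD interval of Stwl by 328 bp and 224 bp and no Stwl interval of WT. Over the 10 genes Stwl had 5 separate intervals in WT, 4 of them overlapped by the bam GKD list (85.1% over the whole WT list), and 6 in bam GKD, 4 of them overlapped by the WT list (52.1% over the whole bam GKD list). BEAF had 7 separate intervals, all 7 overlapped by Stwl in bam GKD and 5 by Stwl in WT. The remaining 2, both between vis and achi, were overlapped in bam GKD and not in WT, as were 6.98% of all BEAF intervals. Over the whole list Stwl overlapped 71.0% of BEAF intervals in WT and 68.2% in bam GKD.

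**Figure D2:**
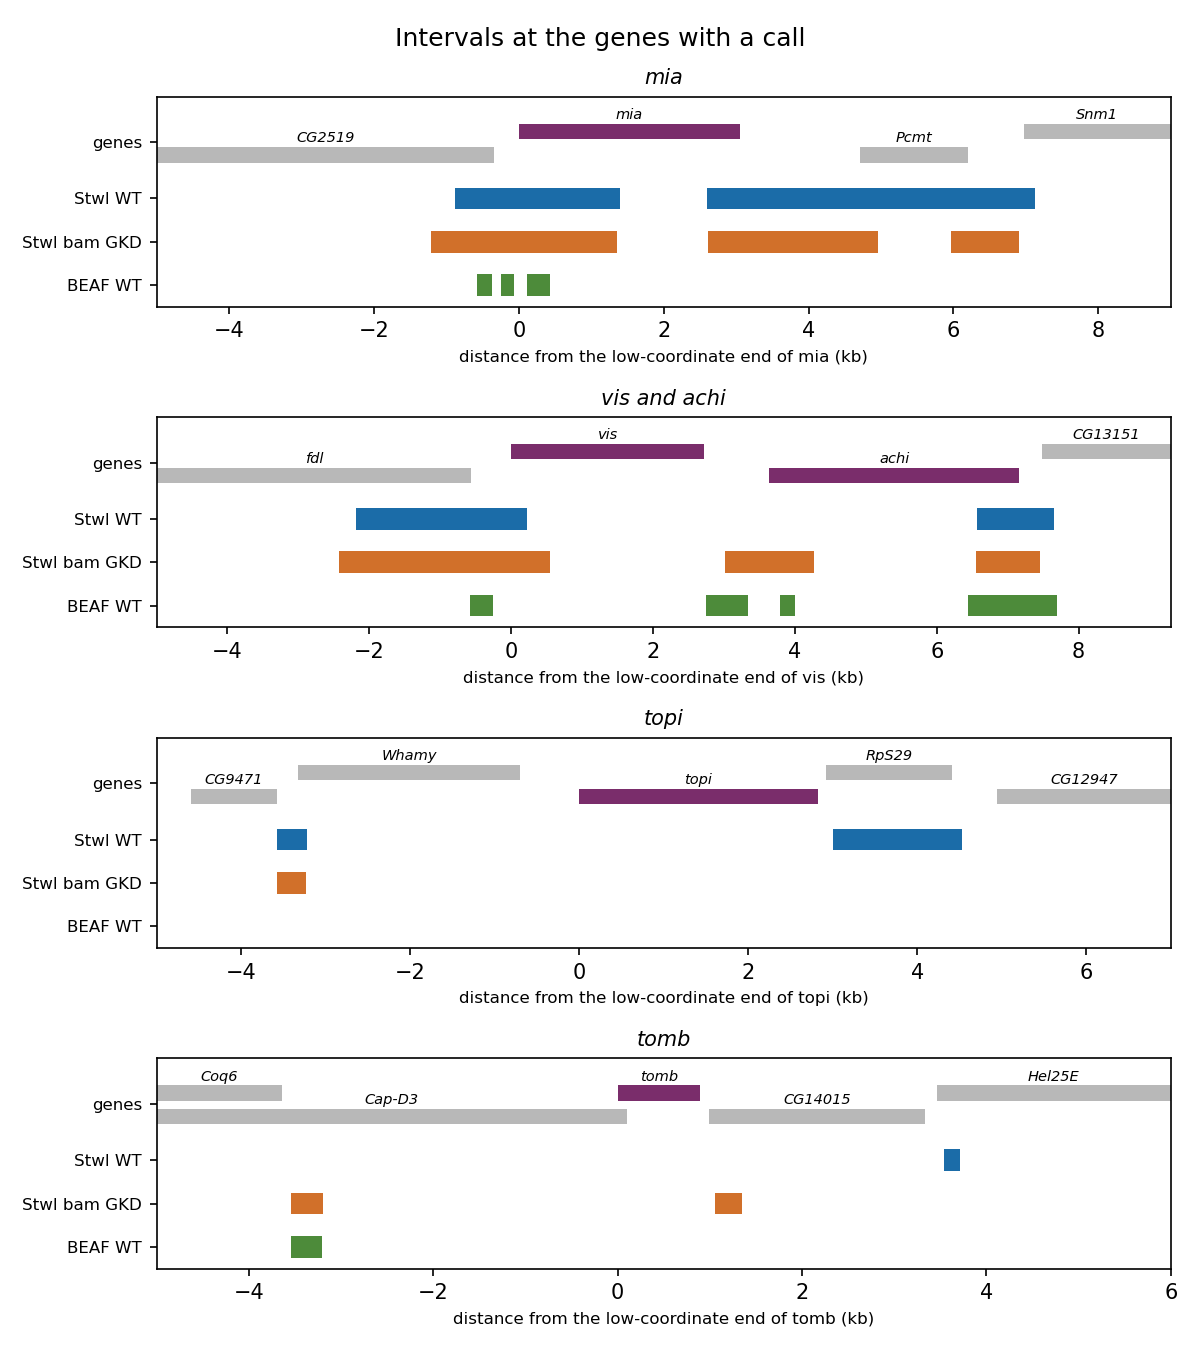
Maps of the 4 places with a call, with distance in kb from the low-coordinate end of mia, vis, topi and tomb; purple boxes are the genes described, grey boxes other protein-coding genes, and coloured bars the intervals of each list. At mia the Stwl bars of WT and bam GKD begin within 1 bp of each other at the high end, between vis and achi only bam GKD has a Stwl bar, of 1250 bp, and at topi and tomb the called bar lies on the neighbouring gene.

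The topi and tomb genes had Stwl in 1 genotype each, beside the gene and not in it. The topi gene (3R, 9775121 to 9777943), whose product is a zinc finger protein, was called in WT by an interval of 1532 bp from 9778121 to 9779652, which begins 178 bp beyond its high end. That interval covers most of RpS29, a ribosomal protein gene that begins 99 bp from topi. Its nearest interval in bam GKD lay 3229 bp away and that of BEAF 11430 bp away.

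The tomb gene (2L, 5535861 to 5536758), whose product has a CXC domain like that of mip120, was called in bam GKD by an interval of 288 bp from 5536922 to 5537209. It begins 164 bp beyond the high end of tomb and lies inside the next gene, CG14015. Only 18.0% of the bam GKD list was narrower. The nearest Stwl interval of WT lay 2639 bp away and the nearest of BEAF 3206 bp away. The low end of tomb overlaps the end of Cap-D3, a condensin gene.

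These distances of 178 bp and 164 bp were the only Stwl calls of a member that rested on an interval outside the gene alone. Counting only intervals inside the annotated gene took both away, leaving 3 members with Stwl in each genotype. The tomb call was also lost when the wider 50% of each list, or equal numbers of the widest intervals in both Stwl lists, were used.

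The aly and comr genes were called in no list. The aly gene (3L, 3024129 to 3026521) encodes the relative of mip130, a DNA-binding subunit of dREAM. Its nearest intervals were at 8676 bp in WT and 8143 bp in bam GKD, at the low end of CG2162, and at 44396 bp for BEAF. The comr gene (2R, 21864870 to 21866859) encodes a nuclear protein that works with aly. Its nearest intervals were at 3978 bp in WT, 798 bp in bam GKD and 177006 bp for BEAF, the greatest distance of all. The bam GKD interval at 798 bp (1602 bp wide) was the nearest to a member without being a call, and a window of 1000 bp turned it into one.

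The surroundings of each gene were taken as the gene with 20000 bp to each side, which includes any interval that made a call. In that stretch can, sa and nht had 2 other protein-coding genes each, comr had 3 and aly had 6. The called genes had between 8 (achi) and 18 (tomb) such neighbours, and the median was 9 for all protein-coding genes and 8 for the 4356 called in no list. The 5 uncalled members thus had fewer neighbours than the median uncalled gene, and the part of this in their calls was not tested. All 5 uncalled members lacked a BEAF interval within 20000 bp, as did 29.1% of all protein-coding genes and 51.0% of those called in no list.

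Stwl of WT covered 0% of that stretch at can, 1.06% at sa, 3.45% at nht, 6.13% at aly and 4.38% at comr, against medians of 8.99% for all genes and 2.43% for all genes called in no list. Stwl of bam GKD covered 15.9% at can, 3.25% at sa, 9.43% at nht, 8.28% at aly and 15.3% at comr, against medians of 13.6% and 5.44%. In WT all 5 lay below the median of all genes, and nht, aly and comr lay above that of uncalled genes. In bam GKD can and comr lay above both medians, nht and aly lay between them and sa lay below both. Around the 5 called members, where the calling intervals count towards it, the cover ranged from 10.4% to 33.0% in WT and from 7.85% to 31.3% in bam GKD.

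The surroundings of can differed most between the genotypes by count, with 10 Stwl intervals in bam GKD and 0 in WT. The 10 intervals were 172 bp to 3696 bp wide and lay on both sides of can, from 1647 bp to 19886 bp away. Only those of 1504 bp, 3696 bp and 849 bp were wider than the bam GKD median of 807 bp. The others were narrower than 461 bp, the least bam GKD width kept with equal numbers of the widest intervals in both Stwl lists. The widest of the 10 covers Or67d, an odorant receptor gene. Both neighbours of can, Or67c and Or67d, were called by Stwl in bam GKD and not in WT. A count of at least 10 in bam GKD with none in WT was found around 17 of the 13922 genes (0.122%), can included, while 10.3% of genes had no WT interval within that distance. The measure was chosen after the values at can had been seen, and it was not taken with equal numbers of intervals. Around comr there were 6 intervals in bam GKD and 2 in WT, and around aly 5 and 3, against medians of 6 and 4 for all genes. The order was the other way around topi, with 6 in bam GKD and 10 in WT.

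**Figure D3:**
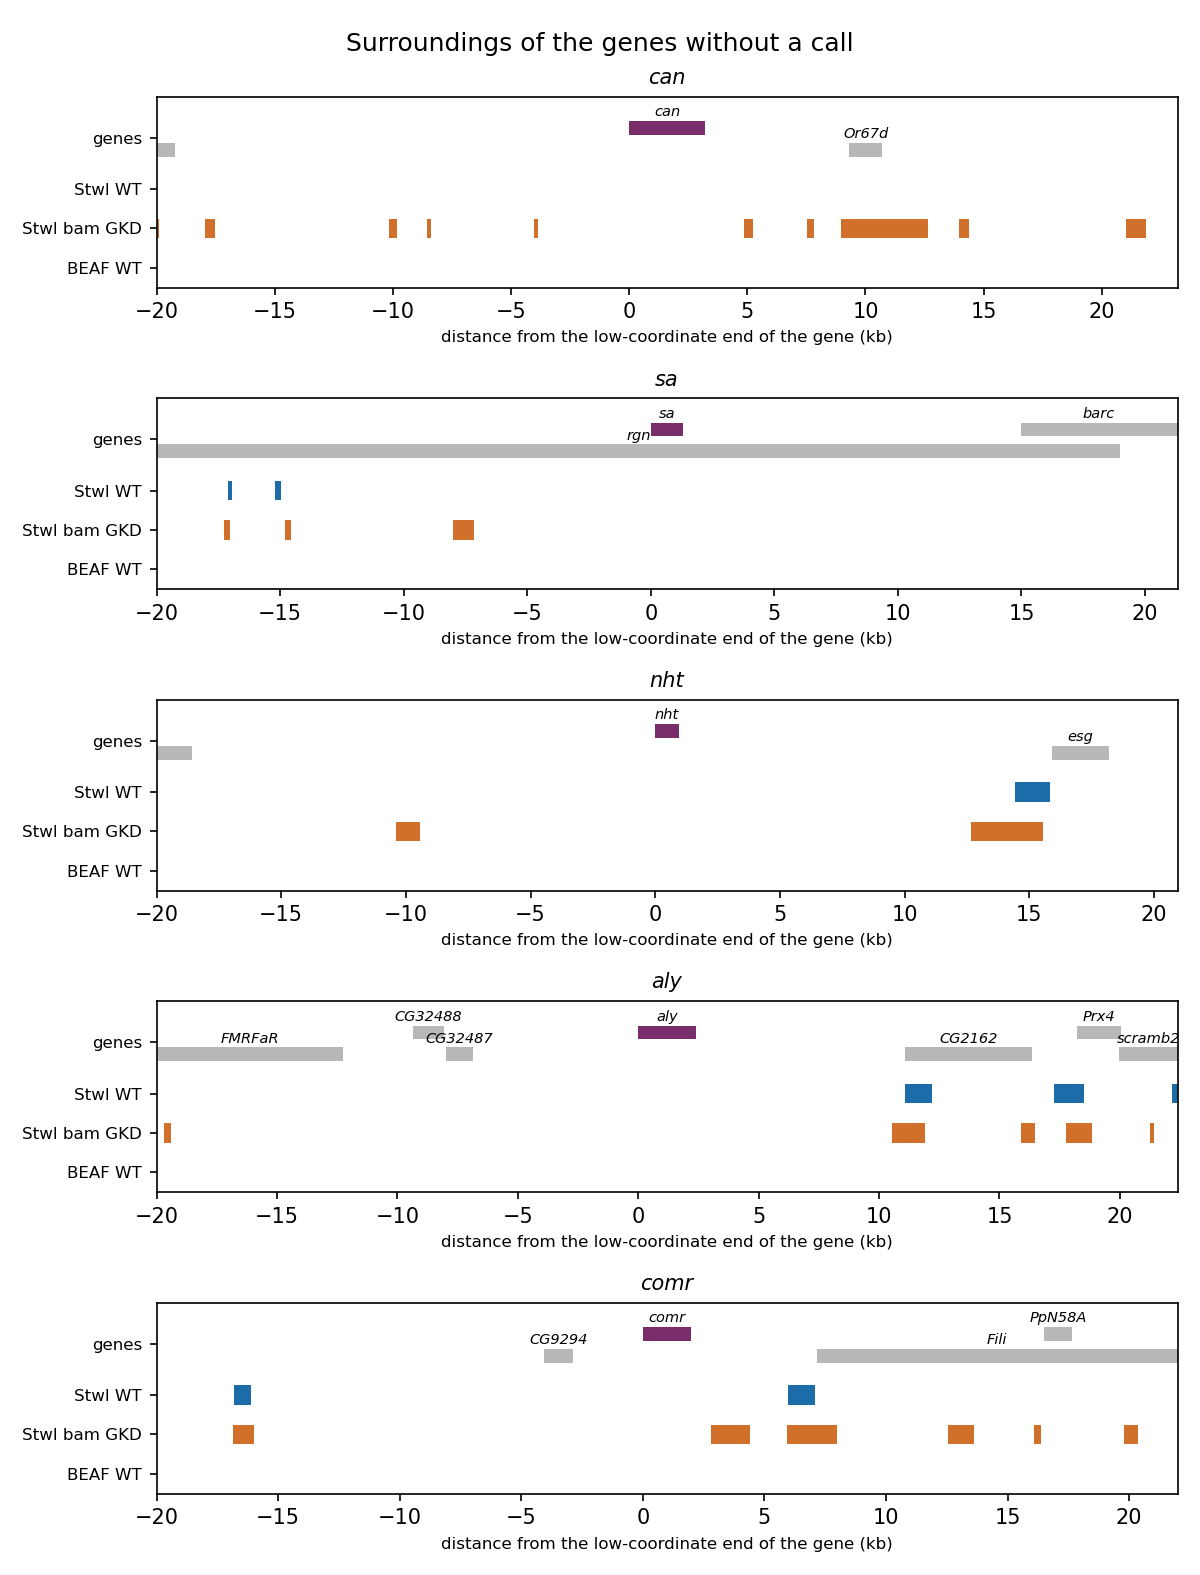
Maps of 20000 bp to each side of the 5 genes called in no list, with distance in kb from the low-coordinate end of the gene; purple boxes are the genes described, grey boxes other protein-coding genes and coloured bars intervals. can is flanked by 10 Stwl intervals of bam GKD and 0 of WT, and no panel holds a BEAF interval.

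The relatives of these genes that act in all tissues were set beside them. Taf5, Taf8 and Taf4 were called in all 3 lists, as were 24.3% of all protein-coding genes. Their testis relatives can, sa and nht were called in none, as were 31.3%. Taf6 was called in all 3, as was its relative mia. At mip130 both lists of WT had a call and bam GKD had none, its nearest interval being at 2713 bp (2.11% of all genes). Its relative aly was called in none. At mip120 all 3 lists had a call, while tomb had one in bam GKD only (11.3% of all genes).

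The intervals at these general genes ranged widely in width. At Taf6 they were 296 bp in WT and 189 bp in bam GKD for Stwl and up to 454 bp for BEAF. At Taf5 (2R, 10877312 to 10879673) the Stwl interval of 656 bp in WT and that of 438 bp in bam GKD began 71 bp and 73 bp beyond the high end, with BEAF at 105 bp. At Taf8 the Stwl intervals were 1361 bp and 1097 bp and BEAF covered 1328 bp. The widest Stwl intervals of WT and bam GKD were 2008 bp and 2055 bp at Taf4 and 1648 bp and 1880 bp at mip120, and that of WT at mip130 was 1335 bp. The intervals at mia were wider than those at Taf6 in both Stwl lists.

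With the 500 bp window, the longer lists of general genes lay above the share of all genes. That share was 55.7% for Stwl in WT, 61.4% for Stwl in bam GKD and 28.1% for BEAF. With intervals inside the gene only, Stwl in bam GKD called 5 of 15 TFIID genes, below the 48.3% of all genes. Of 15 TFIID genes, Stwl called 13 in WT (86.7%) and 12 in bam GKD (80.0%) and BEAF called 11 (73.3%), and Taf10 and Taf10b, which lie side by side, were called in none. The widest Stwl WT intervals were at Taf3 on 4 (9966 bp), Taf12 (2110 bp), Taf4 (2008 bp) and Tbp (1551 bp), which encodes the TATA-binding subunit. In bam GKD the widest interval at Taf3 was 36689 bp. Taf7 was the single gene with Stwl in WT only. Of 11 dREAM and MuvB genes, Stwl called all 11 in WT and 9 in bam GKD (81.8%), and BEAF called 7 (63.6%).

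The widest Stwl WT intervals of the dREAM and MuvB genes were at Myb, a cell cycle transcription factor (8257 bp), l(3)mbt, a chromatin repressor whose loss turns on germline genes in the brain (4535 bp), lin-52 (2566 bp) and mip40 (2109 bp). In bam GKD the widest were 8108 bp at mip40 and 7774 bp at Myb. The mip40 and Caf1-55 proteins are shared by dREAM and the testis complex, and both genes were called in each Stwl list and not by BEAF. Stwl was at an end of mip130 and Dp in WT only, although a bam GKD interval lies inside Dp. Together, 24 of these 26 general genes were called by Stwl in WT (92.3%, against 55.7% of all genes) and 21 in bam GKD (80.8%, against 61.4%). Of them 3 were in the WT list alone (6.18% of all genes) and 0 in the bam GKD list alone (11.8% of all genes).

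The genes that the testis programme works with or switches on were set beside the same shares of all genes, 55.7% for Stwl in WT, 61.4% for Stwl in bam GKD and 28.1% for BEAF. Of 9 other spermatocyte regulators matched, Stwl called 3 in WT (33.3%) and 5 in bam GKD (55.6%) and BEAF called 2 (22.2%), the counts in bam GKD and for BEAF being near the share of all genes. The 3 in WT were bol, a translation regulator of meiosis (1703 bp in WT), twe, a meiotic Cdc25 phosphatase (987 bp), and Taf12L, the testis relative of Taf12 (180 bp). The kmg gene, whose product keeps other tissues' promoters silent in spermatocytes, and Rbp4, an RNA-binding protein gene, had Stwl in bam GKD only, in intervals of 257 bp and 1200 bp.

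Of 17 sperm structure genes, Stwl called 1 in WT, fzo, a mitofusin of the sperm mitochondria (334 bp), and 6 in bam GKD. The 5 called in bam GKD only were Mst87F, dj, djl, ocn and janB. The dj and djl genes share 1 interval of 265 bp, and ocn and janB share 1 of 1316 bp. BEAF called 2, ocn and janB. The protamine genes ProtA and ProtB lie side by side and had the same nearest Stwl interval in each list. It lay at 91464 bp and 89395 bp in WT and at 6651 bp and 4582 bp in bam GKD. Among the uncalled genes of this list, Mst77F (7301 bp in WT, 7393 bp in bam GKD) and betaTub85D (2037 bp and 2040 bp) were slightly nearer to WT. The other uncalled genes were nearer to bam GKD.

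Of 16 cup and comet genes, which are transcribed late in the male germline, Stwl called 3 in WT and 5 in bam GKD, and BEAF called 1. The widest WT intervals were at t-cup (3453 bp), m-cup (2573 bp) and r-cup (219 bp), and p-cup and d-cup had Stwl in bam GKD only. In bam GKD the widest interval at t-cup, a gene of 718 bp, was 26586 bp. Over these 3 lists, 42 genes in all, Stwl called 7 in WT (16.7%, against 55.7% of all genes) and 16 in bam GKD (38.1%, against 61.4%), and BEAF called 5 (11.9%, against 28.1%). Their median length was 1264.5 bp, against 2163 bp for all genes, and no share at matched length was taken. Several lie side by side, so the 42 genes stand for fewer separate places. None of the 42 had Stwl in WT only (6.18% of all genes) and 9 had it in bam GKD only (11.8% of all genes), at 7 separate intervals. These 9 were picked for having no WT interval within 500 bp of an end, so a greater distance follows from that choice. Their nearest WT interval lay 577 bp to 67723 bp away, with a median of 2698 bp.

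The bam GKD list is also the longer one. With the 8576 widest intervals of each Stwl list, bam GKD called 3 other spermatocyte regulators, 3 sperm structure genes and 3 cup and comet genes, against 3, 1 and 3 in WT. At that setting bam GKD called 47.7% of all genes and WT 55.7%, so the order of the shares of all genes turned round.

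**Figure D4:**
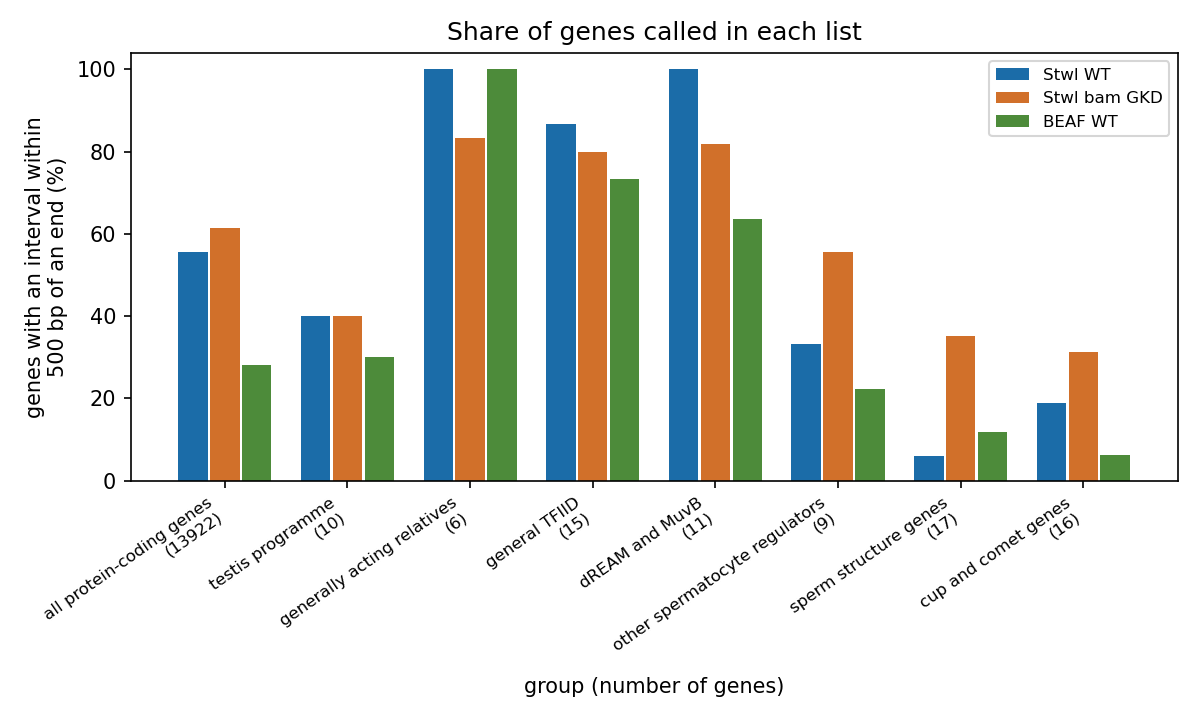
Percentage of genes with an interval within 500 bp of an end, by list, in all 13922 protein-coding genes, the 10 testis programme genes, their 6 generally acting relatives and the 5 longer gene lists (number of genes in parentheses). The general TFIID and dREAM genes lie at 63.6% or more in every list, while the sperm structure genes lie at 5.88% for Stwl in WT and 35.3% in bam GKD.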

How the data were processed

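Groups, with 1 CUT&RUN interval list each, were taken from the sample titles. The authors deposited the lists as bare dm6 coordinates, without strand, score or reads. MACS2 2.1.0, deepTools 3.2.1, SAMtools 1.9, Bowtie2 2.2.8, Trim Galore 0.6.6 and FastQC 0.11.8 are named in the submitters' processing notes. Settings, control library, treatment of reads with several matches and any pooling of duplicates were not given in the sources used here. Stwl intervals were never closer than 1001 bp, against 76 bp for BEAF, so a gap rule may differ between the proteins. Gene positions came from the Release 6 plus ISO1 MT table, the assembly of dm6.

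Overlaps of at least 1 bp were computed with Python 3.11.15, pandas 2.3.3 and numpy 2.4.6, and checked on made-up intervals. The members and gene lists were chosen with earlier results of these data known. Named genes were the members, stwl and bam, the general relatives, genes sharing a member's interval, the nearest neighbours, and in each list the genes called in 1 Stwl list only and the 4 with the widest Stwl WT intervals; others named were chosen after their values were seen. By synonym, Taf9, ProtA and ProtB were matched, and Dany was not matched. Counts were described beside all protein-coding genes, with no test. Promoter motifs, protein identities and a window at the start alone, all planned, were not run, for lack of sequence and strand. The stwl and bam genes were called in each Stwl list and not by BEAF.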

Additional observations from a re-analysis of the deposited data

Results flagged for a closer look

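Intervals on the Y chromosome, which lies outside the arms analysed and which females do not normally carry, were present in all 3 lists although the tissue is ovary. The Stwl list of WT held 9, that of bam GKD 31 and the BEAF list of WT 9, each above the count of 3 set for naming them. In bam GKD 4 of them lay in or within 500 bp of the protein-coding genes kl-3, Ppr-Y and PRY, and in the BEAF list 2 lay at kl-5 and ORY. In the Stwl list of WT none of the 9 lay at any of the 24 protein-coding genes annotated on the Y. The median widths were 284 bp, 317 bp and 250 bp. The part of reads with several matches in these intervals was not tested.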

How the results depend on the processing

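Over 21 counts (members and gene lists) and 7 alternatives, 124 of 147 values were within 1.5 times the reported count and 23 were not; the cause was not tested beyond what each alternative leaves out. No alternative moved the members called by Stwl in WT, by Stwl in bam GKD, by BEAF or by Stwl in both past that factor, but the shares of all genes moved. With the wider 50% of each list, 4, 3 and 3 of the 10 members (Stwl in WT, Stwl in bam GKD, BEAF) stood beside 37.1%, 39.4% and 19.3% of all genes, so the WT count went from below that share to slightly above it. With equal numbers, 3 members stood beside 47.7% in bam GKD. With intervals inside the gene only, 3, 3 and 2 stood beside 45.7%, 48.3% and 22.9%. A window of 250 bp and an overlap of at least 100 bp changed no member call, and allowing intervals inside the gene added none. A window of 1000 bp gave 2 members in bam GKD only (comr beside tomb) and 2 sperm structure genes with Stwl in WT. Intervals inside the gene only left 0 members in WT alone and 0 in bam GKD alone, and it also removed the BEAF call of vis. It left 5 of 15 TFIID genes in bam GKD, which went from above the share of all genes to below it, and 7 with BEAF. It also left 1 other spermatocyte regulator with BEAF and 0 sperm structure genes in WT and 2 in bam GKD. Of the cup and comet genes it left 3 in bam GKD and 0 with BEAF. The wider 50% of each list left 0 members in bam GKD only, 8, 6 and 7 TFIID genes (Stwl in WT, Stwl in bam GKD, BEAF), 2 other spermatocyte regulators in bam GKD, 0 and 2 sperm structure genes in WT and bam GKD, and 3 cup and comet genes in bam GKD. Equal numbers (8576 widest) left 0 members in bam GKD only, and 3 other spermatocyte regulators, 3 sperm structure genes and 3 cup and comet genes in bam GKD. No paired analysis was possible because each group had 1 list and no result comes from a test. The window at the annotated start was not run, as strand was not held. Depth is unknown, so a missing interval was not detected at an unknown depth and is not shown to be absent.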
